A study of Mus musculus with 6 samples.

Results

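The 62 genes described here encode proteins of the splicing machinery, taken from a table of 15266 genes as every row whose symbol begins with *Srsf*, *Hnrnp*, *Hnrp*, *Sf3a*, *Sf3b*, *Snrp* or *Prpf* (a digit had to follow *Srsf*, *Sf3a*, *Sf3b* and *Prpf*), apart from genes set aside by name. They comprise 11 SR protein genes, 19 hnRNP genes, 8 genes of the SF3A and SF3B complexes, 11 *Snrp* genes and 13 *Prpf* genes. The rule uses gene symbols and no measured value, although it was set with earlier results of these data known. All 62 had enough reads to be tested. The samples are D4 embryoid bodies (EBs), aggregates of W9.5 mouse embryonic stem cells differentiated in serum for 4 days, which were profiled by mRNA-seq. One group, EVX1-Δfs, is clone 14, in which CRISPR-Cas9 editing shifted the reading frame of both *Evx1* alleles in the homeodomain of exon 2. The other, Del#3, carries the deletion Evx1/Evx1asΔ2.6kb, which takes out part of *Evx1* and of the antisense noncoding RNA *Evx1as*. Each line has 3 libraries, and EVX1-Δfs is 1 clone, while the number of Del#3 clones is not given in the sources used here. Both groups are predicted to lack functional EVX1 and differ in what remains of the locus, and p-values between them measure the spread between differentiations of these lines. Wild-type EBs were not analysed here. In the submitters' design text the replicates are parallel differentiations of both lines, each begun on another day. Libraries of the same number are taken here to share a day, although that text does not name the numbers.

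Introns are removed from pre-mRNA by the spliceosome, which is built from small nuclear ribonucleoproteins (snRNPs). *Snrp* genes encode the Sm proteins that form a ring on U1, U2, U4 and U5 snRNAs and proteins particular to single snRNPs, SF3A and SF3B are the parts of the U2 snRNP that hold the branch site, and *Prpf* genes encode factors named after yeast splicing mutants, many of them in the U4/U6.U5 tri-snRNP. SR proteins bind exonic enhancers and mostly favour exon inclusion, hnRNPs coat nascent RNA and often oppose it, and both families are known to adjust their own transcripts through alternative exons that lead to decay.

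The reads on listed genes numbered 9024579 to 15699124 per library and were highest in both replicate 1 libraries (15699124 in EVX1-Δfs and 12231851 in Del#3). *Evx1* had 38.3, 32.5 and 33.1 normalized counts in Del#3 replicates 1 to 3 and 2655, 3671 and 3051 in EVX1-Δfs, as the labels state. Of the 9 genes fixed as markers of primitive streak and nascent mesoderm, all 9 had reads in every library, and their summed level ran from 6825 to 10196 normalized counts in Del#3 and from 8063 to 10106 in EVX1-Δfs. The 62 splicing genes took 1.48%, 1.15% and 1.34% of the reads in Del#3 replicates 1 to 3, and 1.49%, 1.26% and 1.20% in EVX1-Δfs. In both lines the share was largest in replicate 1. The 19 hnRNP genes alone took 0.615%, 0.395% and 0.510% in Del#3 and 0.630%, 0.473% and 0.445% in EVX1-Δfs. The 11 *Snrp* genes did not follow this, with 0.173%, 0.217% and 0.202% in Del#3 and 0.205%, 0.199% and 0.222% in EVX1-Δfs.

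Levels between genes were compared as RPKM, reads on a gene scaled to its merged exon length and to the library's reads on listed genes, averaged over the 6 libraries. The highest were Sm proteins: *Snrpd2* at 398 ± 97.5 (SD, n = 6), *Snrpb* at 361 ± 81.5 and *Snrpd3* at 291 ± 140 RPKM, with the hnRNP gene *Hnrnpab* at 331 ± 65.2 RPKM between *Snrpb* and *Snrpd3*. Neighbours in this order differed by less than 1 SD. *Snrpg*, another Sm protein, had 213 RPKM, and the SF3B subunits *Sf3b5* and *Sf3b3* had 190 and 179 RPKM, with *Hnrnpf* at 180 RPKM between them. *Srsf9* had 159 RPKM, and *Prpf19*, the ubiquitin ligase at the centre of the complex named after it, had 139 RPKM. The median member had 50.2 RPKM, with medians of 84.5 for *Snrp*, 72.4 for SF3A and SF3B, 49.8 for hnRNP, 43.3 for SR and 19.1 for *Prpf* genes. At the low end stood *Srsf12*, which had 0.773 RPKM, and *Prpf39*, a U1 snRNP-associated protein, which had 1.25 RPKM. For 19 members, 8 of them *Snrp* genes, the genome held at least 1 other copy of at least 50% of the coding sequence at 95% identity or more, so that reads could be split or lost in counting and their levels are uncertain. This includes *Snrpd2* with 4 other copies, and *Hnrnpa1* and *Hnrnpa3*, chosen here after their values were seen, with 6 and 21.

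The comparison of the lines asks whether removing part of the locus, with its antisense RNA, is accompanied by other changes than the frameshift alone. None of the 62 splicing genes differed between Del#3 and EVX1-Δfs by limma (0 with adjusted p under 0.05, and 0 with unadjusted p under 0.05). Among all 12891 genes tested, 2 passed the adjusted threshold (0.0155%), and 133 had an unadjusted p under 0.05 (1.03%). The median difference of the 62 genes, as log2 of Del#3 over EVX1-Δfs, was −0.011, and that of all genes tested was 0.0022. By family the median was −0.0051 for SR, −0.017 for hnRNP, 0.14 for SF3A and SF3B, −0.12 for *Snrp* and 0.055 for *Prpf* genes. For 47 of the 62 genes the 95% interval of the difference lay within 2-fold either way, against 61.1% of all genes tested. edgeR and DESeq2 also called 0 members by line, where edgeR called 0.0155% and DESeq2 0.0233% of all genes, and at an unadjusted p under 0.05 both gave 0 members, beside 1.12% of all genes by edgeR and 1.33% by DESeq2. With the replicate number as a block edgeR had 0 members past the adjusted threshold (0.0233% of all genes) and 5 at the unadjusted one (4.50%), and DESeq2 had 0 (0.182% of the 9892 genes to which it gave an adjusted p, without *Prpf39* and *Srsf12*) and 2 (3.21% of all genes).

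**Figure D1:**
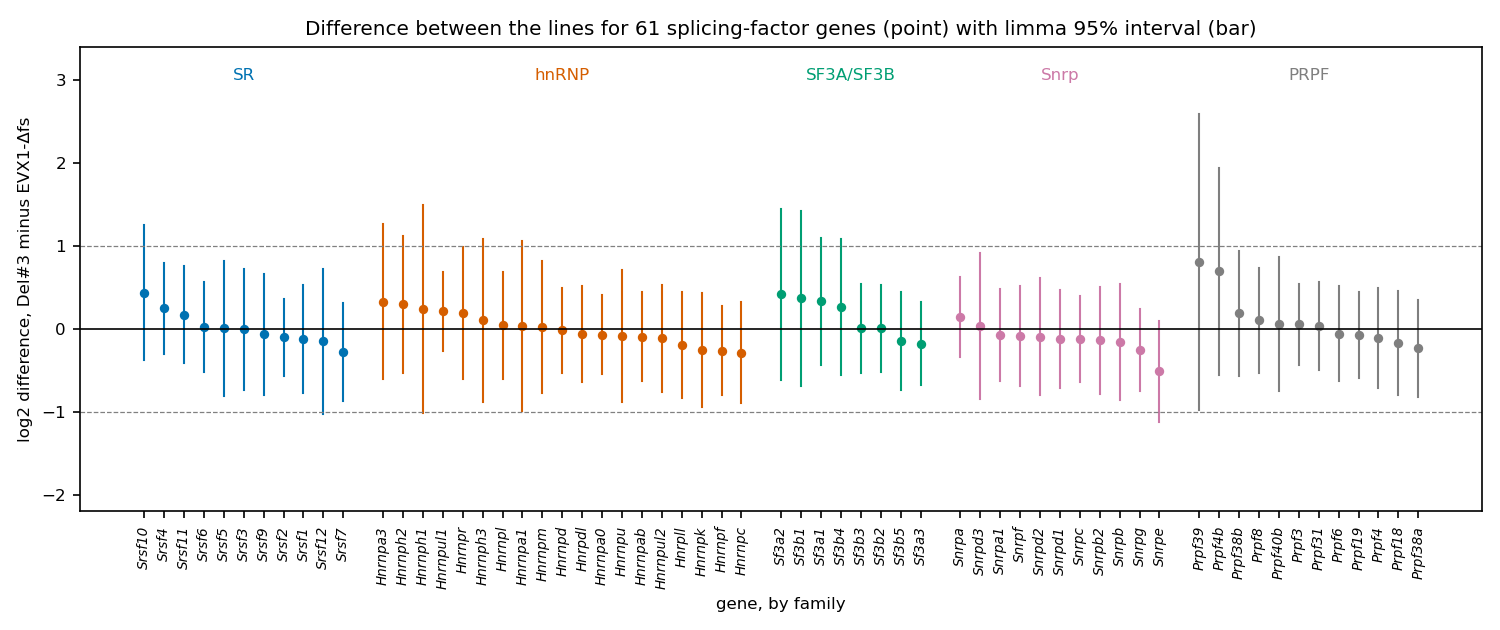
Difference between the lines for 61 of the 62 genes, by family. The y axis is the log2 difference, Del#3 minus EVX1-Δfs (3 libraries each), points are limma estimates on log2(normalized count + 1), bars are 95% intervals and dashed lines mark 2-fold. Every bar drawn crosses 0, and the 3 longest are those of *Prpf39*, *Hnrnph1* and *Prpf4b*.

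*Snrpe*, which encodes an Sm protein, was among the members with the smallest p by line. It had 556, 750 and 679 normalized counts in Del#3 and 1315, 732 and 851 in EVX1-Δfs, so that the lines overlapped only through the second replicates (log2 difference −0.51, SE 0.27, limma adjusted p = 1.00 from a p of 0.0907). *Prpf39* and *Prpf4b*, a kinase that phosphorylates tri-snRNP proteins, had larger fitted differences, 0.81 (SE 0.80) and 0.70 (SE 0.56), with Del#3 higher, and their replicates were far apart within each line. With the replicate number as a block in limma, no member passed the adjusted threshold, which 0.0233% of all genes did, and 4 had an unadjusted p under 0.05, against 4.62% of all genes. All 4 were higher in Del#3, as were 3.64% of all genes in that fit. Among them were *Prpf4b* (p of 0.00737), *Prpf39* (p of 0.0314) and the SR protein gene *Srsf10* (p of 0.0466). With the block, the 95% interval lay within 2-fold for 57 members and for 76.2% of all genes. In 16 of the 62 genes the difference had the same sign in all 3 same-numbered pairs, as it did for 23.1% of all genes tested.

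The replicate number, taken as the day of differentiation, went with larger differences than the line. In a model with the line and the replicate number, 6 of the 62 splicing genes differed between the numbers (limma F test, adjusted p under 0.05), where 4.24% of all genes tested did. At an unadjusted p under 0.05 there were 32 of 62, against 27.7% of all genes. edgeR's test called 5 (3.58% of all genes) and DESeq2's likelihood ratio test 18 (11.5% of the 11391 genes to which it gave an adjusted p, 1 member not among them). The 6 were *Hnrnph1*, *Sf3b1*, *Prpf4b*, *Prpf39*, *Snrpd3* and *Hnrnpr*, and all 6 were highest in replicate 1 of both lines. Most of the variation of the 62 genes over the libraries, 78.0% of the summed squares of the log2 values, lay between replicate numbers, 8.47% between the lines and 13.5% in neither. For all genes tested these shares were 60.5%, 13.7% and 25.8%. The share between replicate numbers was the largest of the 3 in 50 of the 62 genes and reached 86.3% over the hnRNP genes. The matching count over all genes was not taken. There are 3 replicate numbers and 2 lines, so a larger share between numbers arises even where neither has a difference.

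The count of 6 depended on single libraries, and the share of all genes called moved with it. It was 2 without Del#3 replicate 1 (1.62% of all genes), 21 without Del#3 replicate 2 (11.1%) and 27 without Del#3 replicate 3 (24.2%). It was 4 without EVX1-Δfs replicate 1 (1.5%), 28 without EVX1-Δfs replicate 2 (16.9%) and 20 without EVX1-Δfs replicate 3 (18.3%). *Hnrnph1* and *Sf3b1* were called in all 6 of these fits.

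**Figure D2:**
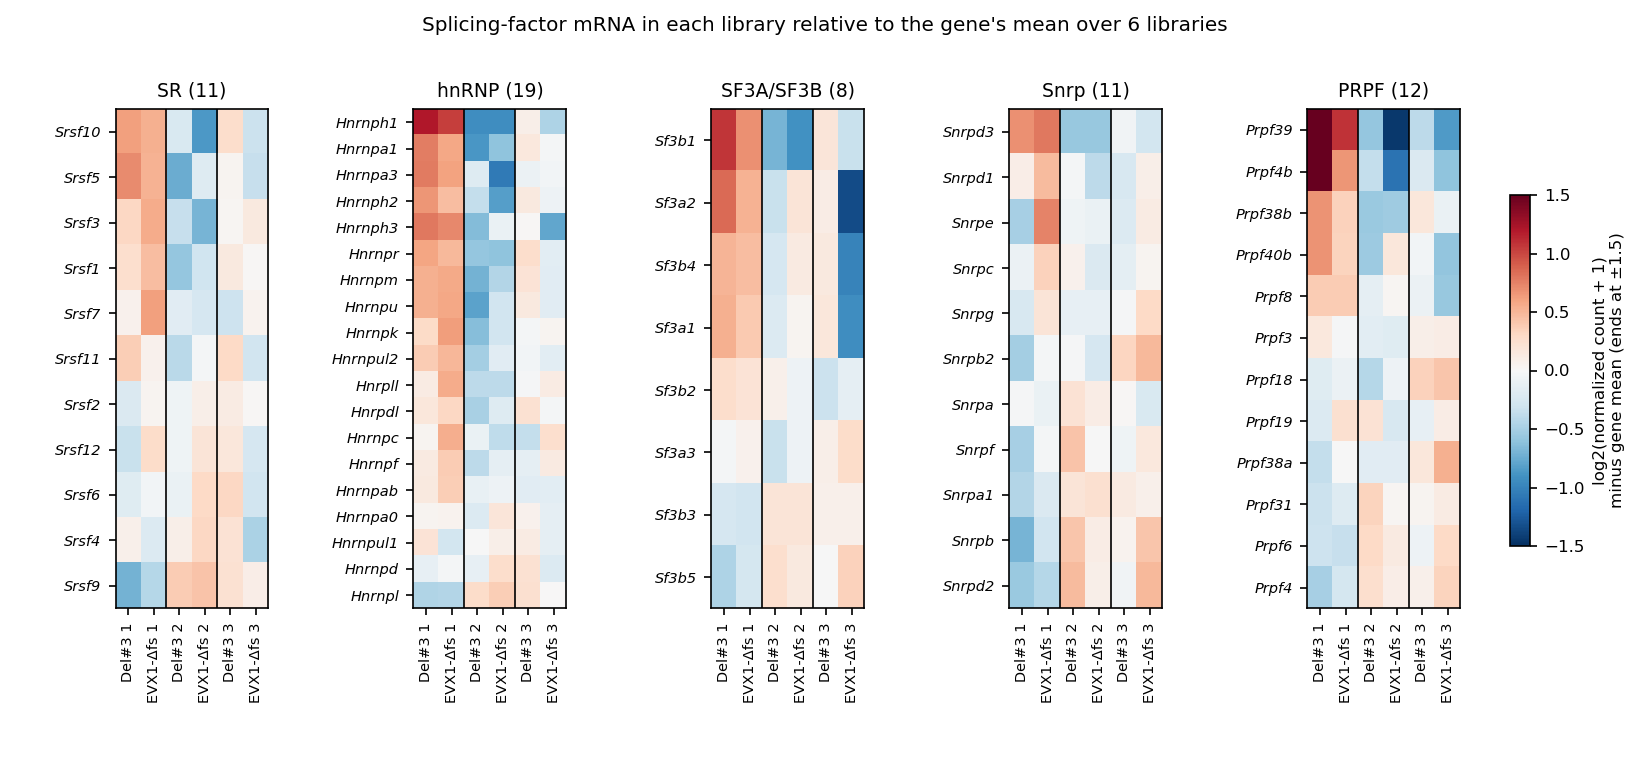
Each row is 1 of 61 genes of the 62, by family and ordered by the difference between replicates 2 and 1, and each column is 1 library, grouped by replicate number. Colour gives log2(normalized count + 1) minus the gene's mean over the 6 libraries, red for higher and blue for lower. Both replicate 1 columns are red in the upper rows of the hnRNP and SR panels, and in the SF3A and SF3B panel EVX1-Δfs replicate 3 is darkest blue at *Sf3a2*, *Sf3b4* and *Sf3a1*.

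*Hnrnph1* encodes an hnRNP that binds runs of G and both activates and represses exons. The gene lies on the plus strand of chromosome 11 (50190492 to 50200030 in NCBIM37, the assembly known as mm9, GENCODE annotation). It had 3975, 907 and 1842 normalized counts in Del#3 replicates 1 to 3, and 3542, 908 and 1259 in EVX1-Δfs. Both replicate 1 libraries stood well above the other 4, and the 2 lines gave nearly the same value in replicate 2. The mean of replicate 1 was 4.14 times that of replicate 2 (log2 difference −2.05, SE 0.21) and 2.42 times that of replicate 3, with adjusted p = 0.0225 by the limma F test.

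*Sf3b1*, on the minus strand of chromosome 1 (55042013 to 55084322), encodes the largest SF3B subunit, which clamps the branch site helix and is often mutated in myelodysplasia. It had 2025, 596 and 1093 normalized counts in Del#3 and 1554, 512 and 764 in EVX1-Δfs, in the order replicate 1, 3, 2 in each line. Replicate 1 was 3.23 times replicate 2 in the mean (log2 difference −1.68, SE 0.20, limma F test, adjusted p = 0.0238). The *Prpf* gene *Prpf4b*, on the plus strand of chromosome 13 (34967363 to 34994746), had 810, 207 and 227 normalized counts in Del#3 and 420, 122 and 174 in EVX1-Δfs. Its replicate 1 values were separate from all others, and Del#3 was above EVX1-Δfs in each pair (log2 difference of replicates 2 and 1 −1.87, SE 0.24, limma F test, adjusted p = 0.0238).

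*Prpf39*, on the plus strand of chromosome 12 (66137320 to 66164373), had the widest range of all members. It had 172, 24.4 and 27.8 normalized counts in Del#3 and 79.2, 12.9 and 20.1 in EVX1-Δfs, so that its highest library was 13.4 times its lowest (log2 difference of replicates 2 and 1 −2.65, SE 0.38, limma F test, adjusted p = 0.0249). Its level is low, and 6.93% of its exon bases overlap exons of a gene on the opposite strand. Other members overlap more, among them *Snrpf* (85.4%), *Hnrnpab* (26.9%) and *Sf3a2* (16.1%) on the opposite strand. For *Hnrnpm* it is 24.8% on the same strand. *Snrpd3* encodes SmD3, an Sm protein in the core of nearly every spliceosomal snRNP, from chromosome 10 (74980787 to 74998185, plus strand). It had 2732, 1146 and 1638 normalized counts in Del#3 and 2951, 1145 and 1400 in EVX1-Δfs, again in the order replicate 1, 3, 2 (log2 difference of replicates 2 and 1 −1.31, SE 0.20, limma F test, adjusted p = 0.0305). *Hnrnpr*, which encodes an RNA-binding protein close to SYNCRIP, lies on the plus strand of chromosome 4 (135866857 to 135896596) and has 1 other copy. It had 1282, 568 and 1018 normalized counts in Del#3 and 1185, 556 and 762 in EVX1-Δfs (log2 difference of replicates 2 and 1 −1.13, SE 0.21, limma F test, adjusted p = 0.0458).

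**Figure D3:**
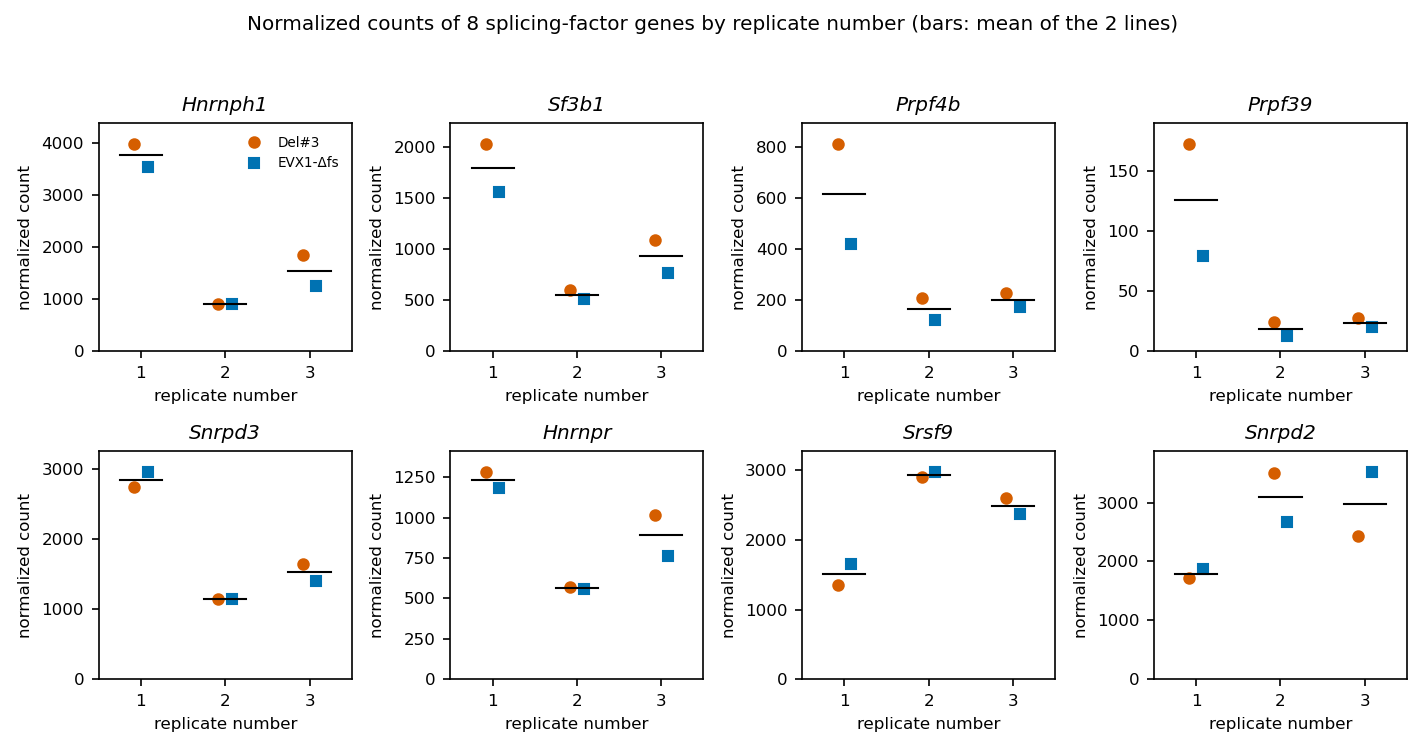
Normalized counts (y axis, from 0) by replicate number (x axis) for the 6 genes past the F test and for *Srsf9* and *Snrpd2*, which were lowest in replicate 1. Circles are Del#3, squares are EVX1-Δfs, 1 library each, and bars are means of the 2 lines. The first 6 panels fall from replicate 1 to replicate 2 in both lines, from 3975 and 3542 to 907 and 908 for *Hnrnph1*, and in the last 2 the replicate 2 values lie above those of replicate 1.

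The bases upstream of these genes are shown because 6 of them were called together by replicate number, with *Srsf9* and *Snrpd2* for contrast. RefSeq promoter sequences of GRCm38.p6 were at hand for 53 of the 62 members, and the 150 bases before the most upstream start listed for each gene were read. Both strands were searched for a GC box (GGGCGG), for the 5 letters of the CCAAT box, for an ETS site (CCGGAAG), for a YY1 site (AAGATGGCG), for a CRE (TGACGTCA) and for a TATA box (TATAAA). Capitals mark the bases of a match, and in the windows printed no match overlapped that of another motif. Coordinates are of GRCm38.p6, and sequences run 5′ to 3′ on the gene's strand.
Hnrnph1, chr11:50376840-50376989 (plus strand): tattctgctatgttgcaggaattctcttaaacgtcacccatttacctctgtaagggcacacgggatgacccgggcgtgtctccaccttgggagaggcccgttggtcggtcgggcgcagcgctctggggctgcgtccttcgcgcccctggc
Sf3b1, chr1:55027479-55027628 (minus strand): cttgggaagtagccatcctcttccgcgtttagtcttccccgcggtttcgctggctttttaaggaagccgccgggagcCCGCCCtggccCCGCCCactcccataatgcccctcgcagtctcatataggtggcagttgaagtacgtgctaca
Prpf4b, chr13:34875379-34875528 (plus strand): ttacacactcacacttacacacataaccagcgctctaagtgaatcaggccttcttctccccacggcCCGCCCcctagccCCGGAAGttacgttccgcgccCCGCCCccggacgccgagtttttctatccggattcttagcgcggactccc
Prpf39, chr12:65036184-65036333 (plus strand): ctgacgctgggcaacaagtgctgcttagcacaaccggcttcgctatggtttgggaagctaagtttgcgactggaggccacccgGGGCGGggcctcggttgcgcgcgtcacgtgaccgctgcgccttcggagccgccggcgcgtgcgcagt
Snrpd3, chr10:75517892-75518041 (plus strand): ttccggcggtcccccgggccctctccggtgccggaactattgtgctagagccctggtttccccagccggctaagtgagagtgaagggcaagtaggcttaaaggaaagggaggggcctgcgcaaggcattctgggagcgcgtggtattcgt
Hnrnpr, chr4:136310792-136310941 (plus strand): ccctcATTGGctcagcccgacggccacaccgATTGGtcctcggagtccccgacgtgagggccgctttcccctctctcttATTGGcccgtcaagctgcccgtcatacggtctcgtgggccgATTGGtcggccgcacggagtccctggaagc
Srsf9, chr5:115327027-115327176 (plus strand): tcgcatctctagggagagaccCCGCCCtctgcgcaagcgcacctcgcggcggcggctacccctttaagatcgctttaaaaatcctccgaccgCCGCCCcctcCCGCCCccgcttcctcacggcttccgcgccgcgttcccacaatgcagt
Snrpd2, chr7:19149688-19149837 (plus strand): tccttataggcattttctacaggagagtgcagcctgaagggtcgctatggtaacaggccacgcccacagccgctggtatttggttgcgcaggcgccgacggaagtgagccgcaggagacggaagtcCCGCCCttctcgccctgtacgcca

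Among the 6 called genes, the *Prpf4b* window held 2 GC boxes and 1 ETS site, that of *Sf3b1* 2 GC boxes, that of *Prpf39* 1 GC box and that of *Hnrnpr* 4 CCAAT boxes, whereas the windows of *Hnrnph1* and *Snrpd3* held none of the 6 motifs. The windows of *Srsf9*, which was called higher in replicate 2 than in 1, and *Snrpd2*, which was not called, held 3 and 1 GC boxes. A GC box was present in 29 of the 53 member windows (54.7%) and in 29% of the windows of all 27025 genes in the RefSeq table. An ETS site was present in 12 of 53 (22.6%) against 5.69% of all genes, and a CCAAT box in 22 of 53 (41.5%) against 25.3%. A TATA box was found in 3 of 53 members (5.66%) and in 8.08% of all genes, and a CRE in 2 of 53 (3.77%) against 1.42%. The YY1 letters were in none of the 53 windows and in 0.366% of all windows. The median GC share of the 150 bases was 62% over the 53 members and 54% over all genes.

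Between replicates 2 and 1, 18 of the 62 genes were lower in replicate 2 and 1 was higher (limma, adjusted p under 0.05), against 8.96% lower and 3.37% higher among all genes tested. Between replicates 3 and 1, and between replicates 3 and 2, no member and no other gene passed (limma, 0 of 12891), and at an unadjusted p under 0.05 there were 20 members lower and 9 higher in replicate 3 than in 1, and 12 higher in replicate 3 than in 2 (12.7%, 11.8% and 7.09% of all genes). Other settings did call members between replicates 3 and 1. By limma 13 were lower and 5 higher without Del#3 replicate 2 (6.37% of all genes each way), 13 lower and 6 higher without EVX1-Δfs replicate 2 (6.12% and 6.19%), 11 lower and 1 higher without Del#3 replicate 3 (6.84% and 3.03%) and 2 lower without EVX1-Δfs replicate 3 (2.57%). With at least 10 reads required in every library 3 were lower (0.419% of all genes), at an adjusted p under 0.1 it was 5 (1.55%), and by DESeq2 6 (314 of all 12891 genes). Between replicates 3 and 2, 1 was lower and 1 higher without Del#3 replicate 3 (0.815% and 1.15% of all genes). The median log2 difference of the 62 genes was −0.43 between replicates 2 and 1, −0.24 between 3 and 1 and 0.11 between 3 and 2, beside −0.027, −0.031 and −0.0081 for all genes tested. In both lines on their own, 36 genes were lower in replicate 2 than in 1 and 15 were higher, and 11 differed in sign between the lines. These signs were not counted over all genes. Both replicate 1 libraries lay above the other 4 for 29 members and below them for 10, where these shares were 22.2% and 22.7% of all genes tested. Without Del#3 replicate 1, or without EVX1-Δfs replicate 1, 4 members were lower in replicate 2, and none was higher (2.98% and 2.72% of all genes lower). Leaving out any of the other 4 libraries left 17 to 24 lower (6.69% to 16.2% of all genes), and 2 to 8 higher (0.761% to 9.31%).

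**Figure D4:**
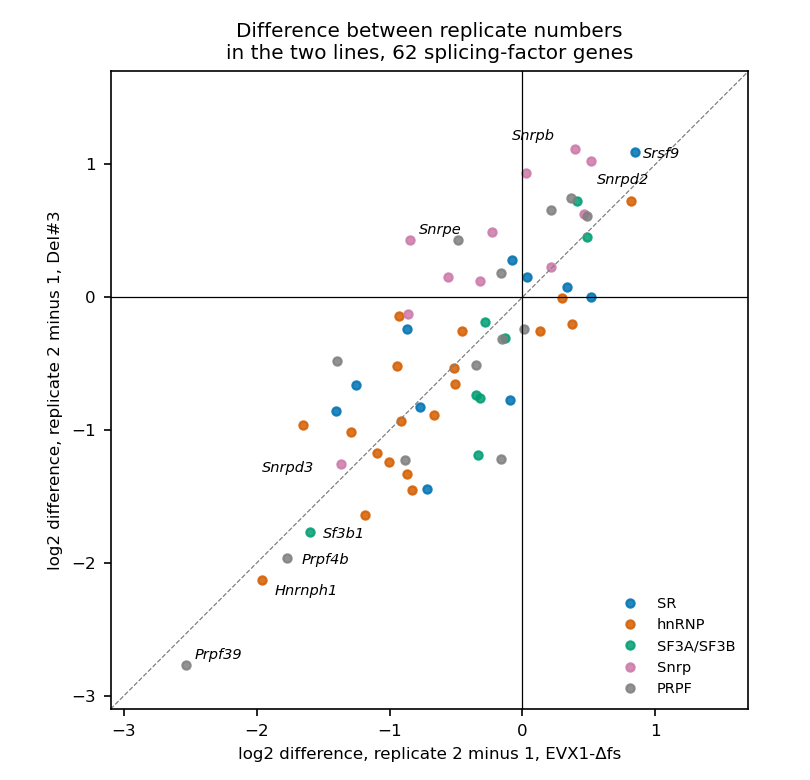
Log2 difference between replicates 2 and 1 within EVX1-Δfs (x axis) and within Del#3 (y axis) for the 62 genes, coloured by family, with the dashed line of equal differences. The lines share no library here, and 36 points lie below 0 in both, down to *Prpf39* at −2.53 and −2.77. The same count was not taken over all genes.

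Among the families, the hnRNP genes had the most negative median between replicates 2 and 1. Of 19, 9 were lower in replicate 2 than in 1 and none was higher (8.96% and 3.37% of all genes tested), and the median log2 difference was −0.78. Between replicates 3 and 1 the SF3A and SF3B genes had the most negative median, −0.65, beside −0.46 for hnRNP genes, and the families were not tested against each other. Besides *Hnrnph1* and *Hnrnpr*, the hnRNP genes called lower in replicate 2 were *Hnrnph2*, *Hnrnpk* and, named here after their values were seen, *Hnrnpa1*, *Hnrnpa3*, *Hnrnpm*, *Hnrnpu* and *Hnrnpul2*. *Hnrnph2*, a close relative of *Hnrnph1* on the X chromosome, had 504, 248 and 352 normalized counts in Del#3 and 440, 179 and 301 in EVX1-Δfs (log2 difference −1.15, limma adjusted p = 0.0183). *Hnrnpk*, a poly(C)-binding protein, had 4834, 2534 and 3875 in Del#3 and 6100, 3236 and 4049 in EVX1-Δfs (log2 difference −0.92, limma adjusted p = 0.0284). In each, replicate 2 was the lowest library of its line and replicate 1 the highest. *Hnrnpu*, the scaffold attachment factor, had 4569, 1817 and 3508 in Del#3 and 4725, 2594 and 2804 in EVX1-Δfs (log2 difference −1.10, limma adjusted p = 0.0277).

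Other hnRNP genes had no difference that passed. *Hnrnpa0* had 3615, 3030 and 3661 normalized counts in Del#3 and 3628, 3978 and 3198 in EVX1-Δfs, and *Hnrnpd*, which encodes the AU-rich element binding protein AUF1, had 3017, 3005 and 3833 in Del#3 and 3208, 3939 and 2850 in EVX1-Δfs. Their F tests gave limma adjusted p = 0.955 and 0.892, and neither gene had its replicate 1 libraries apart from the rest. *Hnrnpul1* was likewise without a difference that passed (limma F test, adjusted p = 0.951), with 3107, 2703 and 2943 in Del#3 and 2231, 2885 and 2455 in EVX1-Δfs. The abundant *Hnrnpab* and *Hnrnpf* were highest in replicate 1 of both lines, *Hnrnpab* at 11475 and 13480 against 9246 to 9855 in the other libraries, without passing (limma adjusted p = 0.304 and 0.118 between replicates 2 and 1). *Hnrnpl*, chosen after its values were seen, was the one hnRNP gene that was lowest in replicate 1 of both lines, at 4919 and 4935 against 6726 to 8695 (log2 difference 0.77, limma adjusted p = 0.0533).

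SR genes split. Of 11, 4 were lower in replicate 2 than in 1 and 1 was higher (8.96% and 3.37% of all genes tested), and their median log2 difference was −0.43. *Srsf10*, a splicing repressor activated by dephosphorylation, had 794, 439 and 622 normalized counts in Del#3 and 750, 284 and 411 in EVX1-Δfs (log2 difference −1.13, SE 0.23, limma adjusted p = 0.0217). The other 3, *Srsf1*, *Srsf3* and *Srsf5*, chosen after their values were seen, had log2 differences of −0.80, −0.96 and −1.08. *Srsf9* was the only one of the 62 that was called higher in replicate 2 by the limma model with line and number at an adjusted p under 0.05. The count of members called higher was 2 with no line term (5.04% of all genes) and 2 after a correction for length and GC content (2.12%). It was 4 by DESeq2 (653 of all 12891 genes) and 5 at an adjusted p under 0.1 (9.78%). *Srsf9* had 1360, 2901 and 2599 normalized counts in Del#3 and 1657, 2978 and 2377 in EVX1-Δfs, so that replicate 2 was 1.95 times replicate 1 in the mean (log2 difference 0.97, SE 0.21, limma adjusted p = 0.0246). *Srsf2* and *Srsf6*, which regulate many constitutive and alternative exons, did not pass, with 2891 to 3660 and 3200 to 4845 normalized counts over the 6 libraries.

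The subunits of the SF3 complexes, which assemble in fixed proportions, had unlike values over the libraries. *Sf3b1* was called, while the SF3B subunits *Sf3b3* and *Sf3b5* were lowest in replicate 1 of both lines. *Sf3b3* had 7209, 9865 and 9053 normalized counts in Del#3 and 7028, 9834 and 9101 in EVX1-Δfs (log2 difference of replicates 2 and 1 0.47, limma adjusted p = 0.171), and *Sf3b5* had 1054, 1741 and 1448 in Del#3 and 1212, 1611 and 1853 in EVX1-Δfs (0.57, limma adjusted p = 0.102). Neither passed the test. *Sf3b2*, which binds next to the branch site, had 3817, 3353 and 2556 in Del#3 and 3665, 3020 and 2901 in EVX1-Δfs.

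The SF3A subunits *Sf3a1* and *Sf3a2* and the SF3B subunit *Sf3b4* shared a low value in 1 library. *Sf3a2* had 1462, 640 and 871 normalized counts in Del#3, and 1166, 924 and 318 in EVX1-Δfs. *Sf3b4* had 1538, 907 and 1194 in Del#3 and 1486, 1188 and 538 in EVX1-Δfs. *Sf3a1* had 2193, 1316 and 1697 in Del#3 and 1982, 1559 and 792 in EVX1-Δfs. In all 3, EVX1-Δfs replicate 3 was the lowest library and replicate 1 the highest of each line. *Sf3a3*, which completes the SF3A trimer, did not share this, with 3431 normalized counts in that library and 2246 to 3013 in the others.

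The Sm proteins, which form a single ring of 7, showed the same contrast. *Snrpd3* was highest in replicate 1, whereas *Snrpb* and *Snrpd2* were lowest there. *Snrpb* had 4544, 9867 and 7638 normalized counts in Del#3 and 6062, 7961 and 9821 in EVX1-Δfs (log2 difference of replicates 2 and 1 0.76, limma adjusted p = 0.0815). *Snrpd2* had 1717, 3502 and 2424 in Del#3 and 1870, 2676 and 3520 in EVX1-Δfs (0.77, limma adjusted p = 0.0749). Neither difference passed. *Snrpd1*, *Snrpe*, *Snrpf* and *Snrpg* had log2 differences of −0.50, −0.21, 0.48 and −0.099 without passing, and the median over the 11 *Snrp* genes was 0.13. The lines differed in sign here, with a median of −0.23 within EVX1-Δfs and 0.43 within Del#3, and this was not tested.

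Among 13 *Prpf* genes, 3 were lower in replicate 2 than in 1 and none was higher (8.96% and 3.37% of all genes tested), with a median of −0.24. The third beside *Prpf39* and *Prpf4b* was *Prpf38b*, with 1533, 655 and 1083 normalized counts in Del#3 and 1226, 665 and 900 in EVX1-Δfs (log2 difference −1.05, SE 0.20, limma adjusted p = 0.0184). *Prpf8*, the U5 protein at the catalytic centre, had 7076, 4955 and 5134 in Del#3 and 7094, 5560 and 3666 in EVX1-Δfs, highest in replicate 1 of both lines and lowest in EVX1-Δfs replicate 3, without passing (log2 difference −0.43, limma adjusted p = 0.234). *Prpf6*, the U5 protein that joins it to U4/U6, was lowest in replicate 1 of both lines at 2012 and 1959, against 2362 to 3067 (0.55, limma adjusted p = 0.122). *Prpf19* had 2686 to 3759 normalized counts and the largest F test p of all members (limma adjusted p = 0.996).

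Base composition and length went with these differences. The 18 genes lower in replicate 2 had a median GC content of 41.8% and a median exon length of 4730 bases, and the 43 that did not pass had 49.1% and 3148 bases. Across the 62 genes, the log2 difference between replicates 2 and 1 had a Spearman rho of 0.47 with GC content and −0.28 with exon length, and across the 12151 tested genes with a known length rho was 0.48 and −0.33. These are correlations across genes that share the same libraries. After a loess correction for length and GC content, 3 of the 6 genes past the F test were left (*Prpf39*, *Prpf4b* and *Snrpd3*), with 1.47% of all genes past it, the count of genes lower in replicate 2 was 8 (3.93% of all genes) and the count of higher ones 2 (2.12%). The difference between the lines also had a rho of 0.40 with length across the 62 genes, and 0.31 across all genes with a length.

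**Figure D5:**
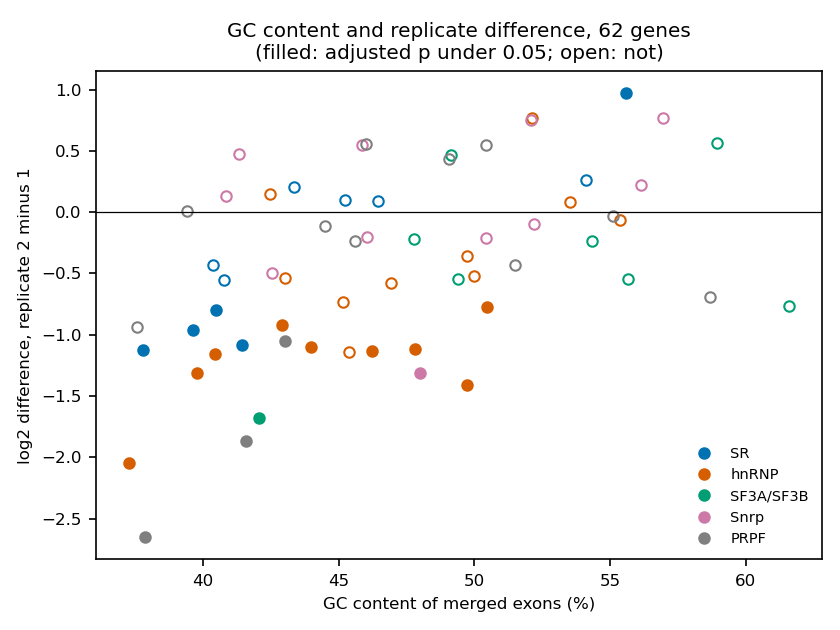
GC content of the merged exons in percent (x axis) and log2 difference between replicates 2 and 1 from the limma fit (y axis) for the 62 genes, coloured by family. Filled points have an adjusted p under 0.05 and open points do not. The 18 filled points below 0 have a median GC content of 41.8%, and the one above 0, *Srsf9*, has 55.6%.

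Other measures moved with the replicate number as well. Depth was highest in both replicate 1 libraries, and after thinning the reads to the smallest library 5 members passed the F test, 19 were lower in replicate 2 and 1 was higher (2.64%, 8.9% and 1.71% of all genes). Of 4 long noncoding RNAs that stay in the nucleus, all 4 had reads, 3 were highest in both replicate 1 libraries and 1 passed the F test. Their summed level was 2908 and 4737 normalized counts in the replicate 1 libraries and 1341 to 2105 in the others. *Malat1*, a speckle RNA, had 1777, 532 and 505 in Del#3 and 935, 308 and 297 in EVX1-Δfs (limma F test, adjusted p = 0.0225). Of 7 markers of blood and endothelial cells, 1 passed the F test, *Hba-x*, and their summed level was 4000 and 4346 in replicate 1 and 3335 to 4620 in the others. No pluripotency marker (7), streak and mesoderm marker (9), endoderm marker (8 of 9 tested) or neurectoderm marker (2 of 5 tested) passed the F test. Between replicates 2 and 1, however, limma called the pluripotency marker *Nanog* (log2 difference 0.95, adjusted p = 0.0318) and the endoderm marker *Foxa2* (0.95, adjusted p = 0.0278) higher in replicate 2. It called *Hba-x* (−2.35, adjusted p = 0.00875) and *Hbb-bh1* (−0.77, adjusted p = 0.0458), both embryonic globins, and *Malat1* (−1.67, adjusted p = 0.00866) lower. These were the only calls in that test among the marker and noncoding RNA lists. The neurectoderm marker *Pax3* was at 0 in 2 EVX1-Δfs libraries. The summed streak and mesoderm markers were 6825 and 8063 in replicate 1 and 8284 to 10196 in the others. Their part in the differences between replicate numbers was not tested, and in whole EBs a change in the share of a cell type and a change of RNA per cell cannot be told apart.

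The rest of the pathway was covered by 132 genes in 5 lists, of which 131 were tested. By line none passed (0 of 131 by limma, beside 0.0155% of all genes, and 1 at an unadjusted p under 0.05, beside 1.03%). The smallest p was that of *Mbnl1*, a muscleblind regulator of tissue-specific exons, with 52.6, 41.8 and 28.8 normalized counts in Del#3 and 20.5, 5.86 and 13.0 in EVX1-Δfs (log2 difference 1.68, SE 0.51, limma adjusted p = 1.00 from a p of 0.0074). *U2surp* and *Ptbp3* came next, with log2 differences of 0.90 and 0.83 and limma p of 0.0502 and 0.0551. By replicate number 13 of 131 passed the F test (4.24% of all genes), and between replicates 2 and 1, 23 were lower (8.96%) and 4 were higher (3.37%), the latter near the share among all genes.

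By list, with no test between the lists, the counts between replicates 2 and 1 were as follows. Among all genes tested 8.96% were lower and 3.37% higher. Of 28 factors of splice-site recognition and SR-like proteins, 9 were lower in replicate 2 and none was higher (median log2 difference −0.56). Of 33 factors of the PRP19 complex, the catalytic steps and the exon junction complex, 7 were lower and 1 was higher (−0.044), and of 25 other regulators of splicing 4 were lower and none was higher (−0.38). Of 30 other snRNP proteins 3 were lower and 2 were higher (0.19). Of 15 SMN complex and snRNP assembly factors none was lower and 1 was higher (0.070). *Rbm25*, a U1-associated regulator, had 1214, 345 and 458 normalized counts in Del#3 and 828, 253 and 297 in EVX1-Δfs (log2 difference of replicates 2 and 1 −1.76, limma F test, adjusted p = 0.0225). *Pnn*, which encodes the speckle protein pinin, had 1173, 333 and 427 in Del#3 and 850, 285 and 371 in EVX1-Δfs (−1.69, limma F test, adjusted p = 0.0238). *Ddx46*, the helicase PRP5 that acts with the U2 snRNP, had 1649, 469 and 769 in Del#3 and 1214, 457 and 633 in EVX1-Δfs (−1.61, limma F test, adjusted p = 0.0238). In all 3, both replicate 1 libraries lay above the other 4.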

How the data were processed

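The 62 members, the gene lists and the tests were chosen with earlier results of these data known. Per the study's methods, Ion Proton reads were aligned by the authors with TopHat2, followed by TMAP, to the mouse assembly mm9, and HTSeq gave counts per gene at default settings. Versions are not given in the sources used here. The values the authors deposited behave as a signal of normalized counts: 100% of them were whole multiples of 1 step per library (tolerance 0.01), and dividing by it recovered the reads. The lines were compared with limma 3.58.1 (R 4.3.3) on log2(normalized count + 1), with an intensity trend, for the 12891 of 15266 genes past filterByExpr of edgeR 4.0.16 (minimum count 10 on recovered reads). p-values were adjusted over all of these by Benjamini-Hochberg (threshold 0.05). Replicate numbers were tested in a model with line and number, which leaves few residual degrees of freedom.

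The submitters' design text ties replicates to shared days without naming the numbers. Same-numbered deviations from the line means correlated at 0.74, 0.32 and −0.053 over all genes for replicates 1 to 3, and at 0.92, 0.52 and 0.25 over the members. EVX1-Δfs replicate 3 correlated more with Del#3 replicate 2 (0.42 over all genes). Genes named are the 3 highest per length in each family, the 8 with the smallest p by line and by number, the 5 with the largest F test p, non-overlapping members, and the SF3 and Sm proteins. In each pathway comparison they are the 3 with the smallest p. 1 member is in every count but is not reported by name here. Exon length, GC content and copies came from GENCODE on NCBIM37. Alternatives were edgeR, DESeq2 1.42.0, other scalings, pseudocounts, filters, blocks, a loess correction (span 0.3) and leaving out single libraries. The limma fits by line and by number were tested on simulated data, where most 2-fold changes were missed and false calls exceeded the nominal share, above all by number. In the simulation by line, the counts held no differences between replicate numbers. Its recovery therefore cannot stand for that of the line fit on these data.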

Additional observations from a re-analysis of the deposited data

How the results depend on the processing

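No member was called by line under any of the alternatives run: pseudocounts of 0.1 and 5, TMM factors, total reads, no low-count filter, at least 10 reads in every library, edgeR, DESeq2, limma, edgeR and DESeq2 with the replicate block, the block with a length and GC correction, an adjusted p under 0.1, single libraries left out, and, chosen after seeing the data, thinned reads and both replicate 1 libraries left out. With the replicate block the count by line was 0 by limma, edgeR and DESeq2, so the pairing changed no call, and 4, 5 and 2 members had an unadjusted p under 0.05. The count of 6 members by replicate number was 18 by DESeq2's likelihood ratio test, 19 at an adjusted p under 0.1 (12.4% of all genes) and 3 after the length and GC correction (1.47%), and 2 to 28 with 1 library left out. All 6 were among the 18, and 5 of them, all but *Hnrnpr*, were called by edgeR, with TMM factors, with total reads and with thinned reads. The median difference between replicates 2 and 1, −0.43, was −0.55 with total reads and with thinned reads, −0.32 after the length and GC correction and −0.50 to −0.29 with 1 library left out. That between replicates 3 and 2, 0.11, was 0.089 by edgeR, 0.094 by DESeq2, 0.053 after the correction and 0.11 to 0.26 with 1 library left out. The medians of all genes moved as well. Between replicates 2 and 1 they were −0.147 with total reads, −0.145 with thinned reads and −0.076 after the correction. Between replicates 3 and 2 the median of all genes was 0.044 after the correction, near that of the members. The causes were not tested. Of 798 values of named members by line, none of them called, 65 changed sign. With 3 libraries per line and no replicate block, limma intervals of 15 members reach past 2-fold, so that changes of that size are not excluded there. With the block, fewer members had intervals that wide.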
